A study of Homo sapiens with 36 samples.

Results

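The regions described here are windows of transcribed sequence whose leading annotation was the 5' untranslated region (5' UTR) and that were listed as reproducibly enriched for at least 1 of 9 RNA-binding proteins. A window was taken from any of the 9 deposited lists if its leading feature type was 5' UTR, and the same window in several lists was counted once. The result was 23700 windows among the 601384 distinct windows of all the lists, or 3.94%, under 8919 gene names. The proteins were assayed by enhanced crosslinking and immunoprecipitation (eCLIP), which sequences the RNA fragments crosslinked to a protein, in HEK293T, a human embryonic kidney line. For each of CPSF5, CPSF6, EIF4B, GRB2, LGALS3, MBNL2, RBM10, RBM22 and RNPS1 there were 2 immunoprecipitated (IP) libraries and 2 input libraries, 36 libraries in all, with no treatment. The antibody recognised either the protein itself or a V5 tag; which one was used for which protein, and whether replicates were separate cultures, is not given in the sources used here. Each list holds only windows called in both replicates, with reads summed over them, so no value exists for a single library and none of the differences below was tested. The authors' enrichment is a log2 odds ratio of IP over input, and it is given here as the value of the lower and of the higher replicate. In windows with at least 20 input reads the authors' mean value differed from the log2 ratio of summed reads by an offset that hardly varied within each of 10 GC classes given in the files (SD at most 0.24) but varied between classes. For EIF4B the median offset was 2.88 in the class lowest in GC and -0.77 in the highest, and for MBNL2 it was 4.39 and -0.84. An enrichment is thus relative to windows of like GC content. Medians of windows that differ in GC are also given as the log2 ratio of summed reads, (IP + 1) over (input + 1), where the order changes. Single windows called strongest were ranked by the authors' enrichment, and their order can differ by the ratio of summed reads. A window absent from a list was not called there, which does not show that the protein was not bound.

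The 5' UTR runs from the cap to the start codon, and it is the stretch that the small ribosomal subunit scans before translation begins. EIF4B stimulates the helicase EIF4A, which unwinds structured 5' UTRs. RNPS1 is a splicing activator that joins the exon junction complex, CPSF5 (gene NUDT21) and CPSF6 form cleavage factor Im of the poly(A) machinery, MBNL2 is a muscleblind splicing regulator, and RBM10 and RBM22 act in splicing. GRB2 is a signalling adaptor and LGALS3 a galectin, neither of which is known mainly for binding RNA. A particular class of 5' UTR, the terminal oligopyrimidine (TOP) type, begins with a C followed by a run of pyrimidines and is found on mRNAs of ribosomal proteins and translation factors.

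The sequences that recur in the results are shown as RefSeq gives them for GRCh38.p14, 5' to 3' on the transcribed strand. Capitals mark an opening pyrimidine run in the first group and GGCGGC repeats in the second. The first 4 begin with a pyrimidine run, and they come from windows listed for CPSF5, EIF4B or both, including the transcripts of both of those proteins.
RPL35A (chr3:197950190-197950219, plus strand): CTTCTCTTaccgccatcttggctcctgtgg
NUDT21 (chr16:56451303-56451332, minus strand): CTCCTCTTgcgctgtcctgttaatggcggg
EIF4B (chr12:53006456-53006483, plus strand): CTTTTgcgttctctttccctctcccaac
RACK1 (chr5:181243877-181243906, minus strand): CTCTCTTTCactgcaaggcggcggcaggag
The next pair carries the GGCGGC repeats that were more frequent in these windows than over all gene starts.
IGF1R (chr15:98648539-98648568, plus strand): agtgtgtggcagcGGCGGCGGCGGCgcggc
KDM5C (chrX:53225178-53225207, minus strand): gacaaaccaagatGGCGGCGGCGGCgctga
The others lie in windows that were among the strongest for EIF4B, for RNPS1 and for GRB2, or that were called for 7 proteins, in that order.
SLC19A1 (chr21:45542420-45542440, minus strand): gctgtagtcccggagtccgcg
UTP18 (chr17:51260546-51260575, plus strand): gttccacgtgagcgcctgcgtttctcctca
FBXO7 (chr22:32475268-32475297, plus strand): acgggaggcccgggctcttccgggcgtcgc
H2AC20 (chr1:149886918-149886947, plus strand): aatcttattttgttgcgaggttctgagcgt
H2BC12 (chr6:27146826-27146855, minus strand): attacttcccgttttctcgatctgctgctc

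The 5' UTR windows were mostly EIF4B windows. The EIF4B list held 21013 of them, or 88.7%, beside 11.4% of all windows. RNPS1 held 7137 (30.1%, beside 25.4% of all windows) and MBNL2 held 4776 (20.2%, beside 7.14%). CPSF6 held 5686, or 24.0%, beside 25.9% of all windows, which is near the background. The remaining lists held few 5' UTR windows. GRB2 had 851 of them (3.59%) although its list took 48.4% of all windows. RBM10 had 415 (1.75%, beside 4.75%), CPSF5 had 364 (1.54%, beside 6.46%), RBM22 had 223 (0.941%, beside 1.44%) and LGALS3 had 72 (0.304%, beside 0.167%). Because a window entered the set by being listed at least once, these shares describe listed windows and not all 5' UTRs.

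**Figure D1:**
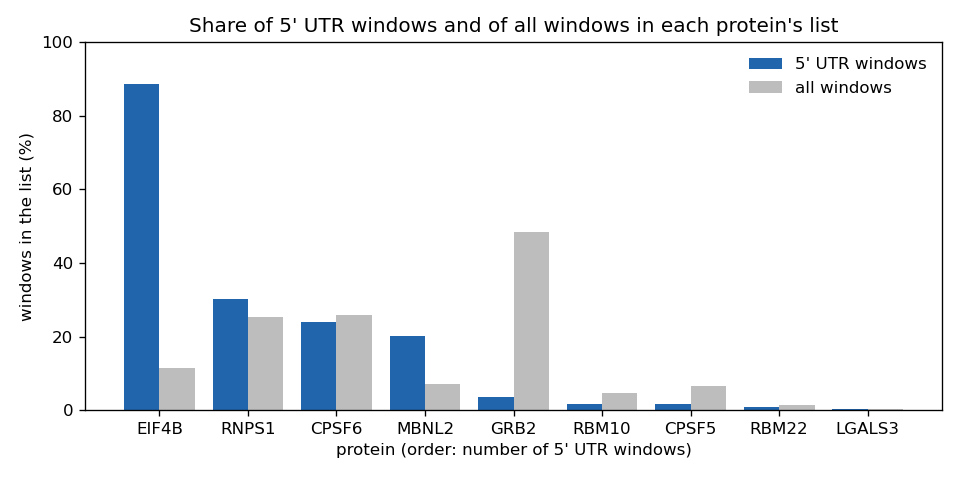
Bars give the percentage of the 23700 windows in 5' UTRs (blue) and of all 601384 windows (grey) that are in each protein's list. EIF4B holds 88.7% of the blue windows and 11.4% of all windows, while GRB2 holds 3.59% and 48.4%.

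Read as a share of each list, 5' UTRs took 30.6% of the EIF4B list, with a 95% Wilson interval of 30.2 to 30.9%, 11.1% of the MBNL2 list (10.8 to 11.4%) and 7.19% of the LGALS3 list (5.74 to 8.95%). They took 4.67% of the RNPS1 list, 3.66% of the CPSF6 list, 2.57% of the RBM22 list, 1.45% of the RBM10 list and 0.938% of the CPSF5 list. The GRB2 share was the lowest, 0.292% (0.273 to 0.313%). The intervals cover counting error only, and neighbouring windows of a gene are not independent. Counted by IP reads in place of windows, 49.2% of the EIF4B reads in listed windows, 16.8% of the MBNL2 reads and 15.6% of the LGALS3 reads lay in 5' UTRs. For LGALS3 most of that share came from a single gene. Its 8 windows in EEF1A1, which encodes a translation elongation factor, held 25822 IP reads and 6930 input reads, and the 10 windows with most reads held 89.2% of all LGALS3 reads in 5' UTRs. In the EIF4B list the corresponding 10 windows held 2.73%. All listed windows together held 187076 IP reads for LGALS3, the fewest, and 13313477 for GRB2, the most. These sums grow with the number of windows called, so they do not measure the depth of the libraries. A short list could also reflect shallow libraries, which was not tested.

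EIF4B reached a 5' UTR in 8638 gene names, a joint name of overlapping genes counted as one. Its 5' UTR windows had a median of 101 IP reads and 4 input reads, and 2062 of them had no input read. The median log2 enrichment was 3.69 in the lower replicate, with quartiles of 2.91 and 4.42, and 4.72 in the higher replicate. The strongest window with at least 20 IP reads and 30 nt was in SLC19A1, a folate transporter gene, at chr21:45542420-45542471, with 407 IP reads against 0 input reads and log2 enrichments of 7.97 and 8.64 in the lower and higher replicate. MRPS34, a mitochondrial ribosomal protein gene, had 294 IP reads against 0 input reads (7.84 and 7.94), and RAB11A, encoding a GTPase of recycling endosomes, had 321 against 0 (7.76 and 8.22). The SLC19A1 window was called for EIF4B alone, whereas those of MRPS34 and RAB11A were also listed for MBNL2 and RNPS1. In RAB11A the MBNL2 window had 35 IP reads against 3 input reads (2.14 and 2.88), and the RNPS1 window had 29 against 1 (2.44 and 3.60).

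Some 5' UTRs held long stretches of EIF4B windows. SLIT2, which encodes an axon guidance ligand, had 20 EIF4B windows that span 1911 nt, with 22452 IP reads against 707 input reads and a median lower-replicate log2 enrichment of 4.40. NR2F1, a nuclear receptor gene, had 19 windows over 1802 nt, with 5628 IP reads against 248 input reads and a median of 3.79. CHPF2, which acts in chondroitin synthesis, had 16 windows and a median of 3.83. EEF1D, a subunit of the elongation factor complex, also had 16, but 12 of them carried an intron annotation as well and their median was 1.53. SLIT2 and NR2F1 were each listed with 16 windows for CPSF6 too, at lower medians of 1.67 and 2.10 in that list. Across the EIF4B list, 3217 genes (37.2%) had a single 5' UTR window.

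Enrichment of EIF4B was higher in the 5' UTR than in the coding sequence of the same mRNA. Among 5670 genes with both kinds of window in the list, 5' UTR windows had a median of 3.88 and internal coding windows 2.48 for the lower replicate's log2 enrichment. The median of the per-gene differences was 1.30, with quartiles of 0.60 and 1.98, and the 5' UTR was the higher in 5059 genes (89.2%). Against windows over the start codon, the difference was 0.58 in 6249 genes, and the 5' UTR was higher in 69.4% of them. Against 3' UTR windows it was 1.76 in 1814 genes, higher in 94.4%. The difference from internal coding windows was 2.10 by the log2 ratio of summed reads, and 1.38 in 2826 genes when both kinds of window came from the highest GC class. BIRC5, a survival gene (survivin), had a difference of 2.68, SLIT2 had 2.70, CCND3, encoding a cyclin of G1 phase, had 2.59, and the stress response factor gene ATF4 had 1.96. These examples are from the upper end, with ATF4 close to the upper quartile of 1.98 and the others above it. In 1366 genes (15.8%) the 5' UTR had an EIF4B window while neither the coding sequence, start and stop codon windows included, nor the 3' UTR did. This share was not particular to EIF4B. It was higher for GRB2 (75%), RBM22 (62.0%), RBM10 (59.3%), LGALS3 (42.4%) and MBNL2 (17.4%). It was lower for CPSF5 (10.1%), CPSF6 (3.52%) and RNPS1 (1.99%).

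For RNPS1, MBNL2 and CPSF6 the order within a gene depended on how GC content was treated. By the authors' enrichment, the median difference of 5' UTR minus internal coding windows was -0.42 over 3861 genes for RNPS1 (quartiles -1.04 and 0.33), -0.34 over 2198 genes for MBNL2 (-0.85 and 0.26) and -0.24 over 2968 genes for CPSF6 (-0.68 and 0.26). By the log2 ratio of summed reads the sign turned, to 0.33 for RNPS1, 0.82 for MBNL2 and 0.36 for CPSF6. With both kinds of window in the highest GC class the differences were near 0, at -0.09 over 1175 genes for RNPS1, 0.0055 over 855 genes for MBNL2 and -0.03 over 842 genes for CPSF6. Against start codon windows the authors' enrichment differed by -0.30 for RNPS1, 0.0095 for MBNL2 and -0.11 for CPSF6, and against 3' UTR windows by 0.0091 for RNPS1, -0.51 for MBNL2 and -0.06 for CPSF6. CPSF5 windows in 5' UTRs were lower than those in the 3' UTR of the same gene by a median of 0.98 on the log2 scale, with 29 of 238 genes (12.2%) higher in the 5' UTR. The median difference was -0.76 by the log2 ratio of summed reads, and -0.08 over 33 genes with both kinds of window in the highest GC class. RBM10 (0.21 over 69 genes), RBM22 (0.14 over 51 genes), LGALS3 (-0.09 over 25 genes) and GRB2 (-0.14 over 33 genes) had few genes with both kinds of window. The quartiles of each of these 4 lists spanned 0. The RBM10 difference was -0.50 over 11 genes once windows that also carry an intron annotation were left out.

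**Figure D2:**
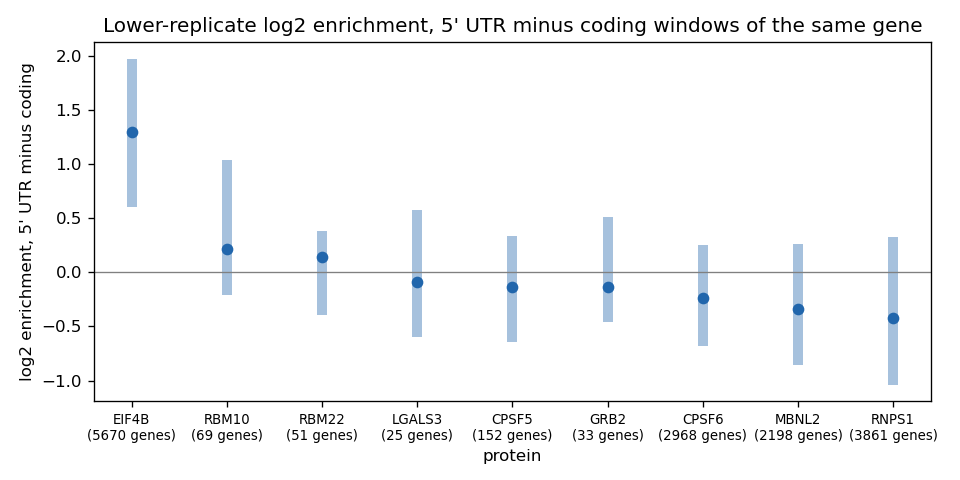
Points give the median over genes of the lower-replicate log2 enrichment in 5' UTR windows minus that in internal coding windows of the same gene and list, and bars give the quartiles over genes, which are not replicates. EIF4B lies at 1.30 with both quartiles above 0, and RNPS1 lies at -0.42 with quartiles on both sides of 0; by the log2 ratio of summed reads RNPS1 is at 0.33.

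Most 5' UTR windows lay near the start of the transcript. The nearest RefSeq start of the same gene, chromosome and strand could be found for 20003 windows (84.4%), and distances are genomic, so that they include introns. Of the placed windows, 55.6% reached into the first 100 nt after a start. The share was 71.2% for LGALS3, 65.5% for MBNL2, 63.5% for CPSF5 and 60.5% for EIF4B. It was 50.9% for RNPS1, 45.1% for CPSF6, 35.6% for RBM22 and 32.0% for GRB2. RBM10 stood at the low end with 12.8%, and 45.7% of its placed windows began 1000 nt or more from the start, compared with 9.19% for EIF4B.

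EIF4B enrichment was highest in windows at and just before the start and lower beyond it. Its median lower-replicate log2 enrichment was 4.0 in 5444 windows that began 0 to 49 nt from the start, 3.65 at 50 to 99 nt, 3.46 at 100 to 199 nt, 3.37 at 200 to 499 nt, 3.33 at 500 to 999 nt and 3.37 at 1000 nt or more. Windows that began up to 100 nt before the start had 3.94 (2151 windows), and those farther upstream had 3.62. The quartiles of these classes overlapped, with 3.19 to 4.71 nearest the start and 2.66 to 4.08 farthest from it. In these outer classes the median GC content for EIF4B was 70.6% and 53.2%, and the median number of IP reads was 117 and 37. Within the highest GC class alone, EIF4B was at 3.97 nearest the start and 3.37 farthest from it, and by the log2 ratio of summed reads it was at 4.89 and 3.29. RNPS1 enrichment was 2.43 at 0 to 49 nt and 3.06 at 1000 nt or more, where its median GC content was 65.7% and 45.9% and its median IP reads were 55 and 24. By the log2 ratio of summed reads that order turned, with 3.92 and 3.25, and within the highest GC class the values were 2.22 and 2.34. MBNL2 lay between 1.91 and 2.35, with 2.10 at 0 to 49 nt and 2.35 at 1000 nt or more. That order also turned, to 2.97 and 2.12 by the log2 ratio of summed reads and to 1.99 and 1.87 within the highest GC class.

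**Figure D3:**
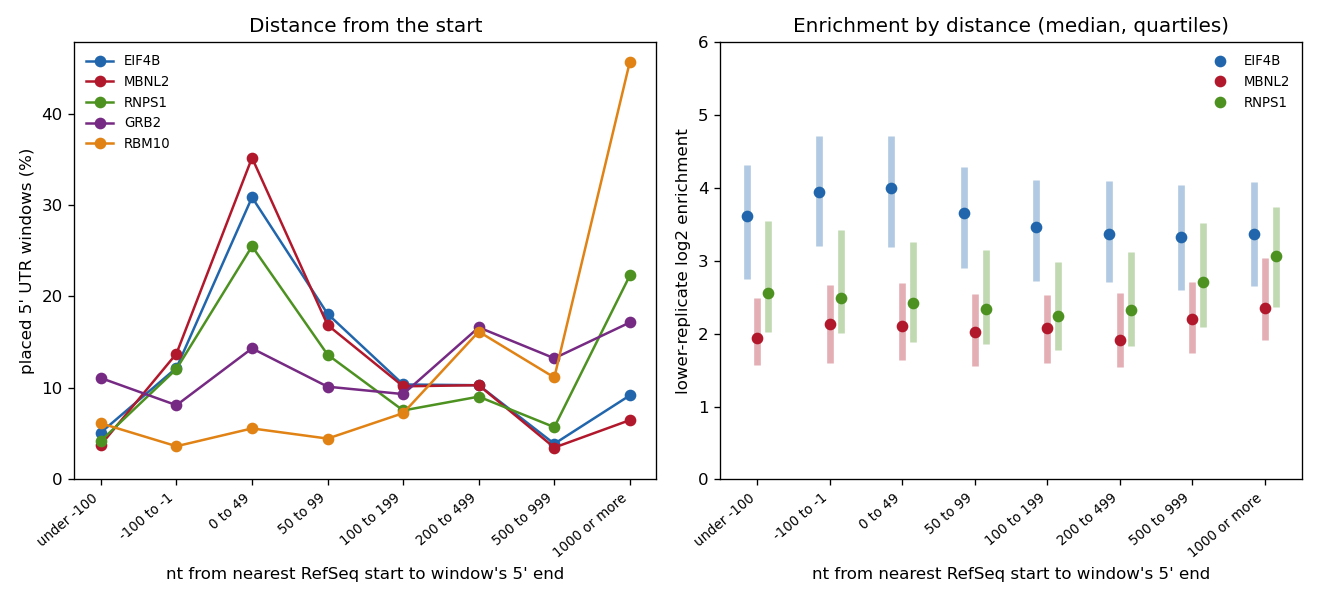
The left panel gives the percentage of each list's placed 5' UTR windows by distance in nt from the RefSeq start used (most overlapped, otherwise nearest) to the window's 5' end. The right panel gives the median (points) and quartiles (bars) of the lower-replicate log2 enrichment. EIF4B is at 4.0 for 0 to 49 nt and 3.37 for 1000 nt or more. RNPS1 is at 2.43 and 3.06 and MBNL2 at 2.10 and 2.35, and both of these orders turn by the log2 ratio of summed reads.

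The 5' UTR windows were rich in G and C. Their median GC content was 69.1% (quartiles 59.1 and 76.5%), beside 61.0% for start codon windows, 48.8% for internal coding windows and 39.4% for 3' UTR windows. MBNL2 had the highest median among the lists, 72.6%, and EIF4B had 70.5%. CPSF5 (62.6%), CPSF6 (61.4%), RNPS1 and GRB2 (both 61.0%) were lower, as were RBM22 (56.0%), LGALS3 (54.5%) and RBM10 (53.9%). Windows in a single list had a median of 69.9%, and those in 4 or more lists had 61.9%.

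Short motifs were counted on the transcribed strand in the first 50 nt after each start where a 5' UTR window covered at least 30 of them. GGCGGC, as in the IGF1R and KDM5C sequences above, was present in 1198 of 6145 such starts (19.5%), beside 8.17% of 35116 starts in the RefSeq table. Its 4-unit form GGCGGCGGCGGC, which contains it, was in 1.79% of the covered starts and 0.672% of all. The covered starts had a mean GC content of 68.7%, beside 59.2% over all starts, and its part in this difference was not tested. An opening of C followed by at least 4 pyrimidines, the TOP-like start, was present in 349 covered starts (5.68%), beside 4.07% of all starts. In the CPSF5 list it was in 31 of 146 starts (21.2%), in the MBNL2 list in 7.93% and in the EIF4B list in 5.80%. The share was 7.47% for CPSF6, 7.45% for RNPS1 and 5.38% for GRB2. In the smallest sets it was 3 of 22 starts for RBM10 (13.6%), 4 of 36 for LGALS3 (11.1%) and 1 of 22 for RBM22 (4.55%). TGCT, part of sequences that muscleblind proteins are known to bind, was in 25.5% of the MBNL2 starts, beside 22.3% of all starts. TGCT was as frequent in the LGALS3 (27.8%), RBM22 (27.3%) and CPSF5 (26.7%) starts, from 36, 22 and 146 starts, and it was in 19.9% of the EIF4B starts. A motif match describes letters and is not a binding site.

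CPSF5 had few 5' UTR windows, and ribosomal protein genes were frequent among them. Of 79 cytosolic ribosomal protein genes, 29 had a 5' UTR window for CPSF5 (36.7%), beside 3.03% of the 10068 protein-coding gene names with any listed window. RPL35A, whose start is shown above, had 47 IP reads against 4 input reads at chr3:197950190-197950244, with log2 enrichments of 3.57 and 5.51. PABPC1, encoding the cytoplasmic poly(A)-binding protein and itself a TOP mRNA, had 286 IP reads against 31 input reads (3.84 and 4.43). The strongest CPSF5 window of all was in DALRD3, a gene named for its anticodon-binding domain, with 50 against 0 reads (5.20 and 6.04), and DALRD3 had 5 such windows with 182 IP reads against 3 input reads in total. SPEN, a transcriptional repressor gene, had 7 windows but a lower median of 1.96. The median over the 29 ribosomal protein windows was 1.46, below the 1.92 of all CPSF5 windows in 5' UTRs. Ribosomal protein genes have many near-identical processed copies in the genome, so how the authors' counting treated reads that match several places could change these values.

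For EIF4B the same 79 genes were at 73 (92.4%), beside 86.6% of protein-coding gene names, so the count was close to the background. High values were those of RPS3A (374 IP reads against 1 input read, 6.44 and 8.23), RPS20 (2780 against 39, 6.39 and 7.04) and RPL12 (1591 against 15, 5.82 and 6.03). RNPS1 had 66 of the 79 (83.5%, beside 40.7%), CPSF6 and MBNL2 had 44 each (55.7%, beside 32.2% and 31.4%), RBM10 had 17 (21.5%, beside 2.56%) and RBM22 had 12 (15.2%, beside 1.75%). LGALS3 and GRB2 had 9 each (11.4%, beside 0.576% and 3.68%). Abundant transcripts give more reads to every library, and the part of abundance in these counts was not tested.

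Other groups of translation and growth genes had EIF4B windows in 94.4 to 100% of their members, beside 86.6% of all protein-coding gene names. These counts too were close to the background. All 20 other TOP mRNAs had one. RACK1, a scaffold protein of the small ribosomal subunit, had 1865 IP reads against 31 input reads over the start shown above (6.02 and 6.91), and the same window was listed for MBNL2 with 597 against 51 (4.41 and 5.25). EIF3F, EIF3E and TPT1 had lower-replicate values of 7.80, 5.64 and 5.53 in their strongest EIF4B windows. Of 44 initiation factor genes, 42 had an EIF4B window (95.5%), led after EIF3F and EIF3E by EIF6 (5.61) and by EIF2B5 and EIF2B2, both at 5.55, which encode subunits of the exchange factor for EIF2. RNPS1 listed 38 of the 44 (beside 40.7% of protein-coding gene names), and its strongest was EIF5 (189 IP reads against 3 input reads, 6.17 and 6.58). All 14 mRNAs known for upstream open reading frames and the stress response that had any listed window had an EIF4B window, headed by AZIN1 (6.16), SLC35A4 (5.82), IBTK (5.77) and IFRD1 (4.89). Of 18 such growth and survival mRNAs with long 5' UTRs, 17 had one, headed by CCND3 (6.20), BIRC5 (5.64), MTOR (5.44) and PIM1 (5.31). EIF4B medians over the windows of these lists were 2.83 for the other TOP mRNAs, 3.92 for initiation factors, 3.90 for upstream reading frame mRNAs and 3.89 for growth mRNAs, beside 3.69 for all its 5' UTR windows. EIF3F, EIF3E, EIF3H, EIF3L, EIF4A2, EIF2S3 and PABPC1 are in both of the first pair of lists.

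Replication-dependent histone genes had the highest median EIF4B enrichment of the gene lists examined. Their mRNAs have short 5' UTRs and end in a stem-loop in place of a poly(A) tail. An EIF4B window was found in 41 of 48 genes (85.4%, beside 86.6%), with a median lower-replicate log2 enrichment of 6.05 over 45 windows. By the log2 ratio of summed reads their median was 5.40, again above the other lists, of which proteasome genes came next with 4.98, and above the 4.54 of all EIF4B windows in 5' UTRs. The order of single genes changed with the measure. Behind H2BC13 came H2BC18 (715 IP reads against 15 input reads, 7.45 and 7.76), H2AC7 (391 against 14, 7.24 and 7.86) and H4C4 (1122 against 25, 6.94 and 7.16). By the log2 ratio of summed reads H2AC7 was at 4.71, below CCND3 (7.01) and RPL12 (6.64), which the enrichment placed lower than H2AC7. MBNL2 had a window in 36 of the 48 (75%, beside 31.4%) with a median of 3.36, and RNPS1 had one in 34 (70.8%, beside 40.7%) with a median of 3.14. LGALS3, which listed only 59 gene names in 5' UTRs, had 20 of the 48 histone genes (41.7%, beside 0.576%), and CPSF5 had 15 (31.2%, beside 3.03%). GRB2 listed none of them. Histone genes are near-identical copies of one another, so reads could be split or shared among them and values of single genes are uncertain.

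The windows called for the most proteins were histone and translation genes. No 5' UTR window was in all the lists, and 7 windows were in 7 of them, among which were those of H2BC12, H3C2, H2BC5, H2BC18, H2AC20 and EEF1A1. The H2AC20 window (chr1:149886918-149886974) had 841 IP reads against 21 input reads for EIF4B (6.72 and 7.45). For MBNL2 it had 132 against 11 (6.16 and 6.89), the highest MBNL2 enrichment among 5' UTR windows with at least 20 IP reads and 30 nt. Its GC content was 38.6%, and by the log2 ratio of summed reads it was at 3.47 for MBNL2, below H2AC11 (3.98). The H2AC20 enrichment was weaker for LGALS3 (36 against 5, 3.49 and 3.67), CPSF5 (45 against 9, 2.78 and 3.68) and RNPS1 (35 against 9, 1.77 and 3.21), and for RBM22 and CPSF6 the lower replicate was at 1.63 and 1.15. H2BC12 had 7905 IP reads against 186 input reads for EIF4B (6.34 and 6.41), and 249 against 144 for RBM22 (0.76 and 1.17). The ATF4 window at chr22:39520660-39520757 was in 6 lists. MBNL2 had 2660 IP reads against 169 input reads there (2.99 and 3.30), and EIF4B had 1641 against 59 (3.97 and 4.04). HNRNPC, encoding a nuclear pre-mRNA binding protein, was 1 gene of the lists examined with a 5' UTR window in all 9 protein lists, though not the same window.

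A smaller share of 5' UTR windows than of all windows belonged to a single list. Of the 23700, 12805 (54.0%) were in 1 list, beside 77.7% of all windows, and 1192 (5.03%) were in 4 or more, beside 1.72%. EIF4B alone accounted for 10965 of the single-list windows. Sharing with EIF4B was more frequent in the 5' UTR than over each list as a whole, where the EIF4B list also holds far more of the windows (88.7% beside 11.4%). It applied to 96.4% of MBNL2 windows in 5' UTRs and 40.4% of all MBNL2 windows. CPSF5 had 86.8% beside 10.7%, LGALS3 had 86.1% beside 50.4%, CPSF6 had 80.7% beside 14.5% and RNPS1 had 79.6% beside 17.4%. Of these, MBNL2 alone was above 88.7%. That share includes the 10965 windows listed for EIF4B alone, so it is not a background for the overlap of another list with EIF4B. GRB2 and RBM10 shared least, with 34.1% and 34.5% of their 5' UTR windows, and RBM22 shared 65.0%. As shares of the longer EIF4B list these overlaps were smaller: 21.9% of its 5' UTR windows were also listed for MBNL2, 27.0% for RNPS1 and 21.8% for CPSF6.

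**Figure D4:**
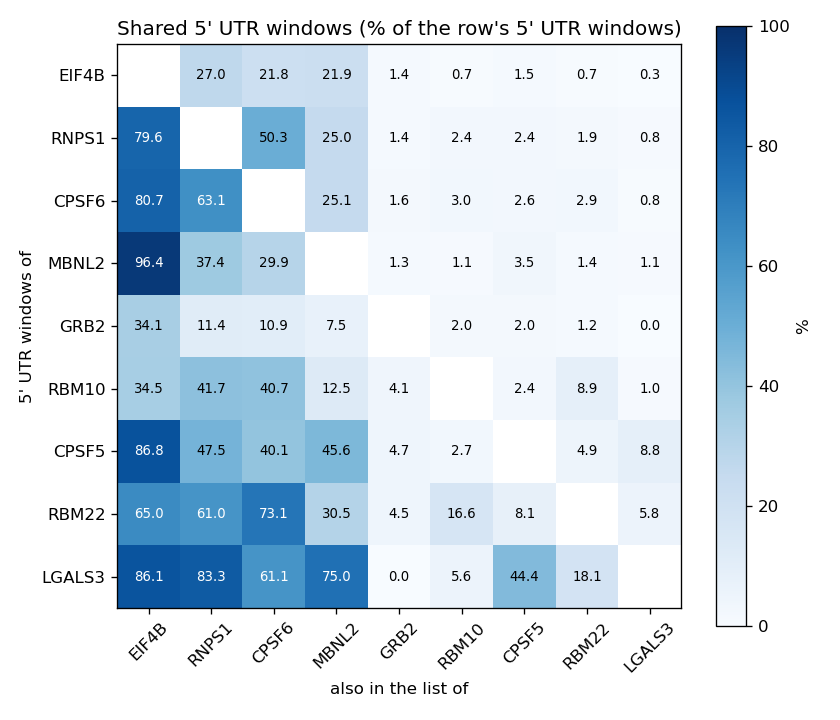
Each cell gives the percentage of the row protein's 5' UTR windows that are also in the column protein's list. The EIF4B column runs from 34.1% for GRB2 up to 96.4% for MBNL2 and is the darkest except in the rows of RBM10 and RBM22. RBM10 has 41.7% with RNPS1 and 34.5% with EIF4B, and RBM22 has 73.1% with CPSF6 and 65.0% with EIF4B.

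MBNL2 listed more of the strong than of the weak EIF4B windows. When the EIF4B windows were divided by lower-replicate enrichment into 4 classes of about equal size, MBNL2 listed 8.61%, 15.8%, 25.3% and 37.97% of them from the weakest class to the strongest. RNPS1 listed 28.2% of the weakest and 26.7% of the strongest, and CPSF6 listed 22.9% and 20.5%. In the weakest and the strongest class the median GC content was 67.4% and 72.6%, and the median number of EIF4B IP reads was 52 and 208. Among EIF4B windows of the highest GC class alone, MBNL2 listed 8.80% of the weakest and 38.9% of the strongest. The part of depth was not tested. After H2AC20, the strongest MBNL2 windows with at least 20 IP reads and 30 nt were in SLC20A1, a phosphate transporter gene (45 IP reads against 6 input reads, 5.75 and 6.37), and CCDC93, which acts in endosomal sorting (74 against 0, 5.73 and 6.02), and EIF4B listed both. The GC content was 36.0% in the SLC20A1 window and 75.4% in that of CCDC93. By the ratio of summed reads the CCDC93 window came before those of SLC20A1 and H2AC20. JUN and BRD2 had 10 MBNL2 windows each. EEF1A1 had 9, with 53180 IP reads against 13478 input reads; in one of these the input had the more reads, 37 IP against 82 input, at log2 enrichments of 1.17 and 1.59. That window had a GC content of 40.7%.

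Windows of RNPS1 and CPSF6 overlapped in 5' UTRs about as they did over the whole lists. Of the RNPS1 windows in 5' UTRs 50.3% were listed for CPSF6, beside 57.3% of all RNPS1 windows, and of the CPSF6 windows 63.1% were listed for RNPS1, beside 56.3%. The combination of CPSF6, EIF4B and RNPS1 occurred in 1859 windows and that of CPSF6 and RNPS1 without any other in 546. The strongest RNPS1 windows were in UTP18, a small subunit processome gene (161 IP reads against 0 input reads, 6.85 and 7.47), TCEAL1 (74 against 0, 6.57 and 7.16) and OGFOD1, a ribosomal oxygenase gene (98 against 0, 6.30 and 6.66). All 3 were listed for CPSF6 and EIF4B as well. TCEAL1 had 138 against 4 reads for CPSF6 (4.68 and 6.84). The strongest CPSF6 windows with at least 20 IP reads and 30 nt were in MAN1A2 (91 against 1, 5.97 and 6.96), RBBP4 (70 against 0, 5.63 and 5.84) and SYNE2 (39 against 0, 5.59 and 6.19), and EIF4B and RNPS1 listed each of them too. All 14 SR protein genes and 24 of 25 hnRNP genes had an RNPS1 window in the 5' UTR (beside 40.7% of protein-coding gene names). EIF4B also had 14 and 24, near its own background of 86.6%. CPSF6 had 12 and 19 (85.7% and 76%, beside 32.2%), and MBNL2 had 10 and 16 (71.4% and 64%, beside 31.4%). GRB2 and RBM22 listed no SR protein gene. The part of transcript abundance in these counts was not tested. GOLGA8B, NBPF9 and the joint PILRB locus had 17, 12 and 16 RNPS1 windows; these belong to families with near-identical copies and are uncertain.

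For GRB2, RBM10 and RBM22 the windows were to a large part 5' UTR in one transcript and intron in another. An intron annotation beside the 5' UTR one was found for 4968 of the 23700 windows (21.0%). Over all 601384 windows, those outside 5' UTRs included, 67.3% carried an intron annotation. The share was 84.1% for RBM10, 73.0% for GRB2 and 52.9% for RBM22, while it was 16.4% for EIF4B and 14.4% for MBNL2. RBM10 windows were adjacent to a 3' splice site in 44.6% of cases, RBM22 windows to a 5' splice site in 27.4%, and the corresponding EIF4B shares were 3.53% and 5.58%. Windows listed for a single protein carried an intron annotation in 436 of 479 for GRB2 (91.0%), 121 of 133 for RBM10 (91.0%) and 21 of 22 for RBM22 (95.5%), compared with 16.5% for EIF4B. The shares of each protein were not computed over its list as a whole, so they may not be particular to its 5' UTR windows. Without the windows annotated as intron, 230 windows were left for GRB2, 66 for RBM10 and 105 for RBM22.

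**Figure D5:**
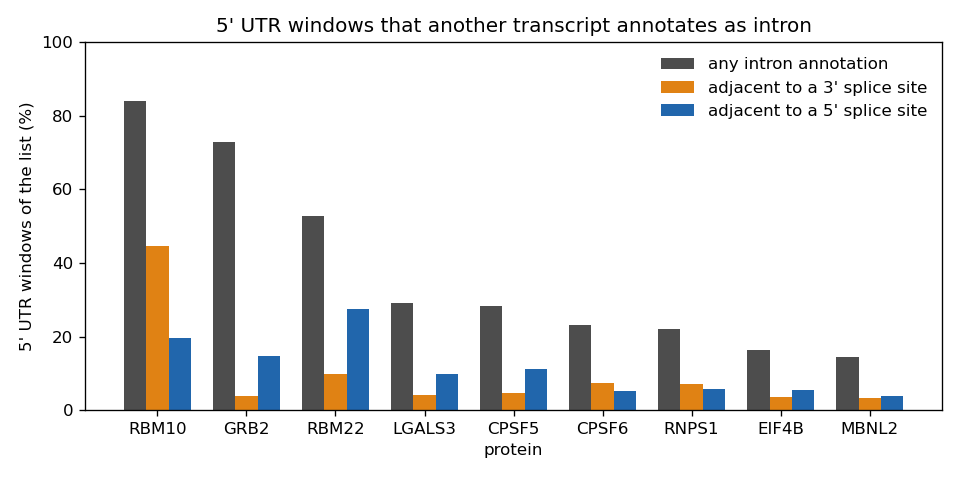
Bars give, for each list, the percentage of its 5' UTR windows that also carry any intron annotation (dark grey), lie adjacent to a 3' splice site (orange) or to a 5' splice site (blue). RBM10 has 84.1%, 44.6% and 19.5%, and RBM22 has 52.9%, 9.87% and 27.4%.

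The strongest windows of these 3 proteins followed the same annotation. ZNF711, a zinc finger gene, had 102 IP reads against 1 input read for RBM10 (5.73 and 5.90), and DNASE1L1 (65 against 0, 5.60 and 5.71) and LANCL1 (92 against 0, 5.43 and 6.26) came next. All 3 windows were adjacent to a 3' splice site, and that of LANCL1 also to a 5' splice site. NAA20, an acetyltransferase gene, had 322 against 2 reads for RBM22 (5.57 and 7.83), followed by XRCC6, encoding the DNA repair protein Ku70 (95 against 0, 5.40 and 6.82), and SRPK1, an SR protein kinase gene (53 against 0, 5.29 and 6.30). Each lay adjacent to a 5' splice site. For GRB2 the strongest were ATL2 (65 against 0, 5.78 and 6.16), OSER1 (56 against 0, 5.69 and 5.83) and FBXO7 (47 against 0, 5.58 and 5.72), all called for GRB2 alone and all also annotated as intron. TTC3 had 28 GRB2 windows and AKT2 had 19, every one with an intron annotation. ZNF75D, with 18 windows and a median of 3.20, had none. In 270 of 360 genes with a GRB2 window in the 5' UTR (75%) the list held no coding, start codon, stop codon or 3' UTR window. For RNPS1 this applied to 80 of 4023 (1.99%).

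The genes of the assayed proteins were examined in every list. EIF4B listed a 5' UTR window in 8 of these 9 genes, all but LGALS3. The LGALS3 gene had no window of any kind outside the LGALS3 list. The EIF4B transcript had 32 IP reads against 4 input reads in the EIF4B list at chr12:53006431-53006483 (3.25 and 3.83), a window shared with RNPS1, CPSF6, RBM22 and GRB2. In NUDT21 the window over the start shown above had 197 IP reads against 2 input reads for EIF4B (5.30 and 5.59), and CPSF5 had 16 against 2 in the adjoining window (2.20 and 3.67). CPSF6 had 284 against 15 on its own 5' UTR (2.84 and 3.82), beside 362 against 16 for EIF4B (3.60 and 3.82). GRB2, RBM10 and RBM22 had no 5' UTR window on their own transcripts in their own lists.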

How the data were processed

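The data are 36 eCLIP libraries of HEK293T cells. The submitters' processing notes name the build hg38; the aligner, the peak caller and the transcript annotation are steps not given in the sources used here. For each protein the authors deposited 1 list of reproducibly enriched windows. Per the file headers, a row holds IP and input read counts summed over replicates, log2 odds ratios (lowest, mean and highest over replicates), q-values, the GC fraction and the window's annotations with a leading feature type. All windows list 2 replicates as significant, with q-values of up to 0.200 in 5' UTRs. No per-sample column was left unused.

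From these lists, windows were united by their number, counted, and described by medians and quartiles with Python 3.11.15, pandas 2.3.3, numpy 2.4.6, scipy 1.17.1 (Wilson intervals at 95%) and matplotlib 3.10.9. No test across replicates was possible. Per-gene differences used the median of a gene's windows of each kind. Gene starts and sequences came from the RefSeq table of GRCh38.p14, which covers the first 50 nt after a start; starts on chromosome 8 were not analysed here. Among several starts of a gene, the one whose first 50 nt a window overlapped most was taken, and otherwise the nearest. Placement of windows was tested on simulated positions in genes with a single start. The choice of start in the 5191 genes with several was not tested. Distances and motif counts were added after the lists were seen.

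Named windows were the 3 strongest per list by the lower replicate with at least 20 IP reads and 30 nt, the genes with most windows, the 10 windows in the most lists, the 4 strongest EIF4B genes of each gene list, and the assayed genes; 1 gene that meets this rule is not reported here. The windows and the gene lists were chosen with earlier results of these data known. Alternatives covered a q-value limit of 0.05, any 5' UTR annotation, weighting by reads, at least 20 IP reads or 1 input read, merged windows, the mean or higher replicate, and, added later, leaving out windows annotated as intron or histone and ribosomal protein genes, the log2 ratio of summed reads with 1 added to each, and the highest GC class alone.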

Additional observations from a re-analysis of the deposited data

How the results depend on the processing

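Of 226 alternative values computed for the descriptions above, 150 moved by less than their error (counts by less than 1.5 times) and 76 moved by more. The difference between 5' UTR and coding windows depended on the baseline of the enrichment: by the log2 ratio of summed reads it became 0.30 (CPSF5), 0.36 (CPSF6), 2.10 (EIF4B), 0.82 (MBNL2) and 0.33 (RNPS1), all but EIF4B with the sign turned. In windows of the highest GC class it became 0.07 (CPSF5, 35 genes), 0.0055 (MBNL2, 855 genes), 0.09 (GRB2, 21 genes) and -0.0063 (RBM22, 7 genes), each with the sign turned. Both settings were chosen after seeing the data. Other settings changed the sign in 3 lists with few genes: LGALS3 (0.11 by the higher replicate, 25 genes), GRB2 (0.00086 with at least 1 input read, 29 genes) and RBM10 (below, 11 genes). When both replicates had to reach a q-value of 0.05 or less, the lists held 106 (CPSF5), 2365 (CPSF6), 420 (GRB2), 20 (LGALS3), 2558 (MBNL2), 123 (RBM10), 67 (RBM22) and 3807 (RNPS1) windows in 5' UTRs. The 5' UTR share then became 0.434% (CPSF5), 3.06% (CPSF6), 38.9% (EIF4B), 2.22% (RBM22) and 3.95% (RNPS1) of each list. Median log2 enrichment became 2.33 (CPSF5), 3.12 (GRB2), 2.74 (LGALS3) and 2.39 (RBM22), and median GC 56.6% (CPSF5), 55.6% (CPSF6), 46.8% (RBM10) and 56.8% (RNPS1). Sharing with EIF4B became 77.0% (CPSF6), 24.3% (GRB2), 95.5% (MBNL2), 22.8% (RBM10), 58.2% (RBM22) and 74.0% (RNPS1), and the LGALS3 difference between 5' UTR and coding windows became -0.65. Fewer windows pass that limit by construction. Counting any 5' UTR annotation gave shares of 1.15% (CPSF5), 4.51% (CPSF6), 32.9% (EIF4B), 9.08% (LGALS3), 12.1% (MBNL2), 2.99% (RBM22) and 5.87% (RNPS1). Weighting by IP reads gave 5.40% (CPSF6), 49.2% (EIF4B), 0.335% (GRB2), 15.6% (LGALS3), 16.8% (MBNL2), 1.94% (RBM10), 1.81% (RBM22) and 6.22% (RNPS1). With at least 20 IP reads the shares were 4.29% (CPSF6), 35.2% (EIF4B), 16.6% (MBNL2) and 5.74% (RNPS1), median GC was 64.4% (CPSF6), 73.9% (MBNL2) and 64.6% (RNPS1), and 97.9% of MBNL2 and 82.9% of RNPS1 windows were shared with EIF4B. Merging adjoining windows left 10957 stretches for EIF4B and 511 for GRB2. Taking the mean over replicates gave medians of 3.14 (GRB2), 2.56 (LGALS3) and 3.25 (RNPS1). Taking the higher replicate gave 2.61 (CPSF5), 3.03 (CPSF6), 4.72 (EIF4B), 3.66 (GRB2), 3.07 (LGALS3), 2.88 (MBNL2), 3.63 (RBM10), 2.53 (RBM22) and 3.86 (RNPS1). By the higher replicate, 8 of the 27 strongest windows stayed among the 3 strongest of their list and 14 among the 10 strongest, so the order of single windows depends on the replicate used. Of the alternatives chosen after seeing the data, leaving out windows annotated as intron left 230 (GRB2), 66 (RBM10) and 105 (RBM22) windows and gave an RBM10 difference of -0.50, and leaving out histone and ribosomal protein genes left 43 LGALS3 windows. Except where the construction shows it, the cause was not tested. No paired analysis was possible because the lists give reads summed over replicates and no value for a single library, and for the same reason no replicate could be left out. The lists hold only called windows, so depth limits what could be listed.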

Other observations

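Input reads over the assayed genes differed from list to list. The RNPS1 window at chr16:2264644-2264729 had 7857 IP reads and 590 input reads in the RNPS1 list (log2 enrichment 3.83 and 4.20), and the input reads of the same window were 21 in the CPSF6 list, 9 in the EIF4B list and 7 in the LGALS3 list. The MBNL2 window at chr13:97276149-97276235 had 2334 IP reads and 879 input reads in the MBNL2 list (5.09 and 5.68), with 11 input reads in the RNPS1 list and 1 in the LGALS3 list. Over all listed windows of the MBNL2 gene, the MBNL2 list held 641633 IP reads and 132857 input reads, and over those of the RNPS1 gene the RNPS1 list held 543786 and 31305. The 5' UTR windows carried only a small part of these, 2424 IP reads in MBNL2 and 8157 in RNPS1. Over all listed windows of the LGALS3 gene, the LGALS3 list held 9601 IP reads and 5532 input reads. Its 5' UTR window had 65 and 22 of these, and no other list held a window of that gene. Whether the cells carried an added copy of any of these genes is not given in the sources used here. Both windows were also among the 72 of LGALS3, with 68 IP reads against 7 input reads in RNPS1 (2.78 and 4.43) and 57 against 1 in MBNL2 (4.88 and 7.02).

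Other gene groups had EIF4B windows in the 5' UTR near the background of 86.6% of protein-coding gene names. They comprised 31 of 33 proteasome subunit genes (93.9%) and 36 of 39 chromatin regulator genes (92.3%). The proteasome windows had a median lower-replicate log2 enrichment of 4.24, led by PSMA6 (6.27), PSMB4 (5.89), PSMD11 (5.72) and PSMA2 (5.69), and the chromatin regulator windows had 3.40, led by SIN3A (5.87), BRD2 (5.71), KDM5C (5.08) and KDM5A (5.05). CPSF6 and RNPS1 listed 31 and 30 of the chromatin regulators (79.5% and 76.9%, beside 32.2% and 40.7%), and 10 and 18 of the proteasome genes (30.3% and 54.5%).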
